A study of Mus musculus with 4 samples.

Results

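Shelterin is the protein complex that coats mammalian telomeres, and its 7 mouse genes were followed here across primary embryonic fibroblasts of 4 genotypes. The genes were chosen by name: Terf1, Terf2, Terf2ip, Tinf2, Pot1a, Pot1b and Acd. All 7 symbols were found among the 22497 symbols compared, and all 7 were among the 11589 genes called measured, with a mean of at least 1 FPKM (fragments mapped, scaled to transcript length and library size) over the 4 libraries. Poly(A)-selected RNA was sequenced in 1 library per genotype, all of the C57BL/6 strain. The groups were wild type, Gadd45-/- (named Gadd45a-/- in the design text), G3 Terc-/- and G3 Gadd45-/-Terc-/- (dKO). The labels do not spell out G3, which in work on Terc mice usually means the third generation bred without this RNA template of telomerase, and both Terc-/- groups carry it. The number of embryos behind each culture and its passage are not given in the sources used here. Each value below is from a single library with no replicate, and no test was possible. The libraries are called WT, KO (Gadd45a-deficient), G3 (G3 Terc-deficient) and dKO (G3 doubly deficient) below after their labels, and 4 values in a row follow that order.

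Telomeres end in long runs of the repeat TTAGGG and a single-stranded overhang. TRF1 and TRF2, encoded by Terf1 and Terf2, bind the double-stranded repeat, and RAP1, encoded by Terf2ip, rides on TRF2. TIN2, encoded by Tinf2, bridges TRF1 and TRF2 to TPP1, encoded by Acd, which holds the POT1 proteins on the overhang and brings in telomerase. Human cells have a single POT1, whereas the mouse divides its work between Pot1a and Pot1b. Shelterin keeps chromosome ends from being read as broken DNA, and telomeres that shorten without telomerase hold less of it.

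Promoter sequences, 250 bases before to 50 bases after the annotated start, were available for 6 of the 7 genes from RefSeq on build GRCm38.p6, and none was listed for Terf1. Those of Tinf2 and Terf2ip are shown because, after Terf1, these genes lay furthest from the Terc-proficient libraries in both G3 libraries, Tinf2 below and Terf2ip above. Tinf2 is at chr14:55681768-55682067 on the minus strand and Terf2ip at chr8:112011109-112011408 on the plus strand, both printed 5′ to 3′ along the gene. Capitals mark any match, on either strand, to the telomere repeat TTAGGG, the cell cycle homology region TTTGAA, the CCAAT box CCAAT or the GC box GGGCGG.
Tinf2: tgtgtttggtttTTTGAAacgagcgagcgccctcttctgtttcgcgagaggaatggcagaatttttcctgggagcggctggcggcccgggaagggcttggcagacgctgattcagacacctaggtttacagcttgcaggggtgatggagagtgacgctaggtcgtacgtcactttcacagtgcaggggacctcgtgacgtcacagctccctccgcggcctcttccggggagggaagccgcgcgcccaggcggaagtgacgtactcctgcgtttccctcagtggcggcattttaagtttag
Terf2ip: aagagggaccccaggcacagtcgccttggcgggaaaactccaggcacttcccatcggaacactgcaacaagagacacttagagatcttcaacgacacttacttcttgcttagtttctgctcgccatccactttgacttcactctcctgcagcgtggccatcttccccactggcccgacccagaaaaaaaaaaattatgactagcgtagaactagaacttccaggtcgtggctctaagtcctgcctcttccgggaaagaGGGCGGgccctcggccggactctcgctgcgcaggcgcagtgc
The Tinf2 window held 1 TTTGAA match, a motif present in 17.9% of the 32851 mouse promoters of the same length, and no match to the others. The Terf2ip window held 1 GGGCGG match, found in 35.7% of promoters. TTTGAA was also found in the windows of Pot1b and Terf2, and GGGCGG in those of Pot1a, Pot1b and Terf2. Of the 6 genes only Pot1b had the telomere repeat, with 1 match at each of its listed starts, against 10.6% of all promoters. CCAAT was found in the windows of Acd, Pot1b and Terf2, and in 37.4% of promoters. Both printed windows were rich in the CG dinucleotide, with 24 in Tinf2 and 16 in Terf2ip, where the median promoter had 7. So were the windows of Pot1a (22), Terf2 (18) and Pot1b (15), whereas that of Acd had 7.

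Some facts of the whole series bear on what follows. Depth, estimated from the spacing of low FPKM values, was 19500000 to 19900000 fragments per library. Gadd45a was higher, not lower, in the libraries labelled deficient for it (33.9 FPKM against 22.9 in WT, and 45.1 against 31.4 among the G3 libraries), so genotypes are given as labelled. Terc was listed at 0.53, 0.26, 0 and 0 FPKM in that order, below 1 FPKM in every library and too low to check the Terc labels. The KO-labelled library was male (Xist at 0.15 FPKM, Ddx3y at 16.4 FPKM), and the other 3 were female (Xist at 23.96 to 34.1 FPKM), so sex differs along with genotype wherever that library is used. All 12 fibroblast markers were at 1 FPKM or more in each library, and they summed to 13338, 14216, 8289 and 13179 FPKM. They did not move together. In the G3-labelled library 8 were lower than in WT and 4 higher. The 4 were Dcn (25.6 FPKM in WT and 584 in the G3-labelled library), Lum (4.87 and 42.6), Fn1 (1417 and 1708) and Pdgfra (33.2 and 37.1). Summed markers of other cell types lay between 1.34 and 2.01 FPKM for endothelium (0 of 6 genes at 1 FPKM or more) and 0.21 and 0.53 for erythroid cells (0 of 5). Leukocyte markers summed to 4.51 to 15.9 FPKM (2 of 8, Ptprc at 0.08 or less) and epithelial ones to 7.995 to 16.2 (1 of 6, Cdh1 at 0.01 or less). Neural markers summed to 44.8 to 103 FPKM (2 or 3 of 6, Neurod1 at 0) and muscle markers to 64.3 to 139 (2 of 6, Myod1 at 0.06 or less). Leukocyte, epithelial, neural and muscle sums were highest in the dKO-labelled library, though Des was highest in WT and Map2 in the KO-labelled library. The 5 hepatocyte markers summed to 8.68 FPKM in WT (3 at 1 FPKM or more) and to 0.50 or less elsewhere. The part of these cell types in the differences below was not tested. In bulk RNA, fewer cells of a type and less RNA per cell cannot be told apart.

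Shelterin transcripts were of low to middling abundance in these fibroblasts, and their order was nearly the same in every library. Because FPKM is scaled to transcript length, levels were compared between genes. The annotation and strand setting used are not given, so such comparisons are approximate. Acd was the most abundant in all 4 libraries and Pot1b the least, 8.34 to 9.84-fold apart within a library. In wild type, 62.7% of measured genes lay below Acd and 12.9% below Pot1b. From these levels and the estimated depth, each value rested on roughly 114 to 1048 fragments. Intervals given below are approximate 95% counting intervals built from those approximate numbers. They cover counting error only, not the spread between cultures.

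**Figure D1:**
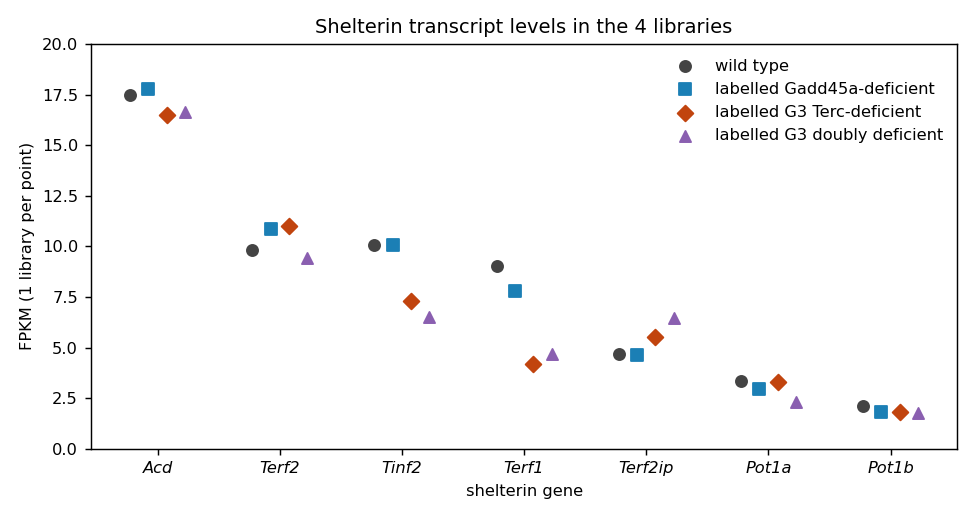
FPKM (linear axis from 0) of each shelterin gene, 1 point per library, genes ordered by mean level. Terf1 and Tinf2 stand lower and Terf2ip higher in both G3 libraries than in both Terc-proficient ones, while the points of Acd lie between 16.5 and 17.8 FPKM.

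Terf1, of the pair that binds the duplex repeat, varied most of all 7 genes. It stood at 9.03 FPKM in WT, 7.81 in the KO-labelled library, 4.18 in the G3-labelled library and 4.66 in the dKO-labelled library. Both G3 libraries were thus below both Terc-proficient ones without overlap. How many measured genes separate the libraries in this way, in either direction, was not counted. The separation is therefore not read as particular to Terf1, or to Terf2ip and Tinf2 below. The sign was the same in G3 against WT and in dKO against KO, a weaker condition, for 77.9% of measured genes. Against wild type the G3-labelled library was 2.16-fold lower, a log2 ratio of FPKM of -1.11 with a counting interval of -1.43 to -0.79. On the log2(FPKM + 1) scale used for counting genes the difference was -0.95, and 6.89% of measured genes had a lower one. Its range over the 4 libraries, 0.95 on that scale, was wider than that of 78.2% of measured genes.

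Terf2, the close relative of Terf1 that guards against end fusion, did not follow it. Its values were 9.84, 10.8, 11.0 and 9.44 FPKM. The Terc-proficient and G3 values overlapped, and the range of 0.20 in log2(FPKM + 1) was wider than that of only 11.3% of measured genes. The ratio of Terf1 to Terf2 in FPKM accordingly went from 0.917 in WT and 0.721 in the KO-labelled library to 0.3803 and 0.494 in the G3 libraries.

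Terf2ip, whose product is carried by TRF2 and is dispensable for end protection in mouse cells, lay on the other side. It stood at 4.66 FPKM in both Terc-proficient libraries, 5.51 in the G3-labelled library and 6.45 in the dKO-labelled library. Both G3 values were above both others. The dKO-labelled library was 1.38-fold above wild type, with a log2 ratio of 0.47 and a counting interval of 0.26 to 0.68. For the G3-labelled library the ratio was 0.24, with an interval of 0.02 to 0.46 that came close to 0. The matching difference in log2(FPKM + 1), 0.20 as reported, was 0.10 after quantile normalization and 0.25 when libraries were rescaled to an equal sum. Relative to Terf2, Terf2ip went from 0.474 in WT and 0.430 in the KO-labelled library to 0.501 and 0.684 in the G3 libraries.

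Of the bridging proteins, Tinf2 was lower in the G3 libraries and Acd varied least. Tinf2 stood at 10.0 FPKM in WT, 10.1 in the KO-labelled library, 7.30 in the G3-labelled library and 6.53 in the dKO-labelled library. Both G3 values were below both others, a separation whose share among measured genes was not counted. The log2 ratio to wild type was -0.46 in the G3-labelled library, with a counting interval of -0.65 to -0.27, and -0.62 in the dKO-labelled library, with an interval of -0.81 to -0.43.

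The Tinf2 values carry a limit of their own. Gmpr2, a guanosine monophosphate reductase gene on the opposite strand, overlaps it, and 35.9% of the 50-base stretches of the longest coding Tinf2 transcript in GENCODE M21 also occur in Gmpr2 transcripts. Gmpr2 values were 20.03, 16.1, 13.0 and 14.8 FPKM, also lower in the G3 libraries. If strand was not used in counting, fragments of the pair cannot be told apart, and the part of Gmpr2 in the Tinf2 difference was not tested.

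Acd had the narrowest range of the complex. Its values were 17.5, 17.8, 16.5 and 16.7 FPKM, and only 2.27% of measured genes varied less over the 4 libraries in log2(FPKM + 1). The log2 ratio to wild type was -0.09 in the G3-labelled library, with a counting interval of -0.21 to 0.04, so that a difference beyond that interval was not seen at this depth. Acd overlaps Carmil2 on the opposite strand, which shares 26.0% of its 50-base stretches but was listed at only 0.13 to 0.48 FPKM.

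The overhang-binding genes were the least abundant. Pot1a, which restrains the ATR damage signal in mouse cells, stood at 3.35 FPKM in WT, 2.94 in the KO-labelled library, 3.28 in the G3-labelled library and 2.33 in the dKO-labelled library. The dKO-labelled library was the lowest. Against the KO-labelled library, the next lowest, its log2 ratio was -0.33 with an interval of -0.66 to -0.01. The G3-labelled library and WT lay close as reported, with a log2 ratio of -0.03 and an interval of -0.32 to 0.26. Their difference in log2(FPKM + 1), -0.02 as reported, became -0.21 after quantile normalization. Between the G3 libraries Pot1a was 1.41-fold lower in the doubly deficient one, a log2 ratio of -0.50 with an interval of -0.81 to -0.18.

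Pot1b, which limits trimming of the strand opposite the overhang, stood at 2.098, 1.81, 1.83 and 1.76 FPKM. WT was the highest, and the other 3 values lay close together. All of its counting intervals held 0 in the 5 comparisons. Pot1a exceeded Pot1b 1.597-fold in WT, 1.62-fold in the KO-labelled library, 1.79-fold in the G3-labelled library and 1.32-fold in the dKO-labelled library. The genes are paralogs, but no 50-base stretch of the longest Pot1a transcript was found in any other gene, Pot1b included.

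Summed over the 7 genes, shelterin transcripts came to 56.5 FPKM in WT, 55.9 in the KO-labelled library, 49.6 in the G3-labelled library and 47.8 in the dKO-labelled library. The composition of the sum differed between the libraries. Terf1 made up 15.98% and 14.0% of the sum in the Terc-proficient libraries and 8.44% and 9.75% in the G3 libraries. Terf2ip went the other way, from 8.25% and 8.33% to 11.1% and 13.5%, and passed Terf1 in rank in both G3 libraries. Tinf2 made up 17.8%, 18.03%, 14.7% and 13.7% of the sum, and Terf2 17.4%, 19.4%, 22.2% and 19.7%. The share of Acd was 30.9%, 31.8%, 33.2% and 34.8%, and that of Pot1b stayed between 3.23% and 3.71%.

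**Figure D2:**
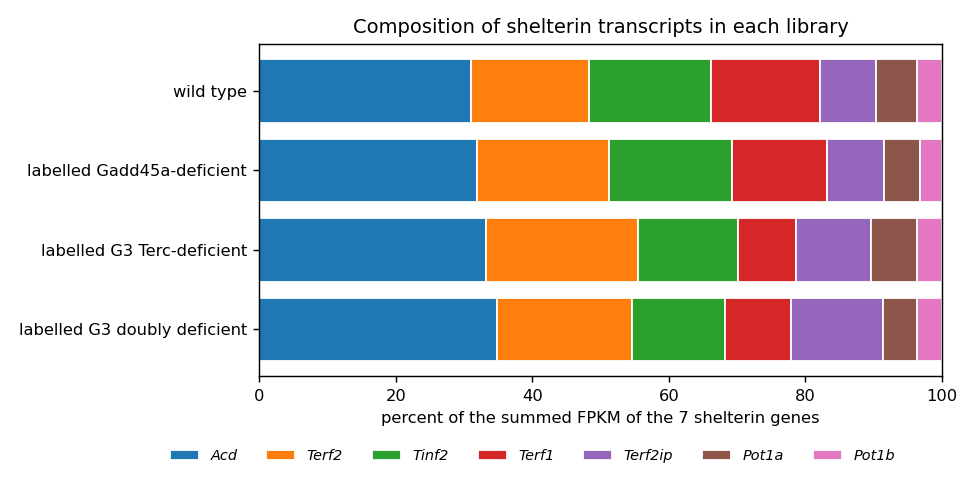
Percent of the summed FPKM of the 7 shelterin genes taken by each gene, 1 stacked bar per library. The Terf1 segment is narrower and the Terf2ip segment wider in both G3 libraries, where Terf1 makes up 8.44% and 9.75%.

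Genes were counted in 5 comparisons when their difference reached 2-fold of FPKM + 1, a rule that a gene at low FPKM reaches only with a larger ratio of FPKM itself. Between the G3-labelled library and wild type, 16.2% of measured genes passed that rule but none of the 7 shelterin genes did. Terf1 came closest, its FPKM ratio of 2.16 giving a difference of -0.95. The median of the 7 was -0.08 (-0.21 after quantile normalization), beside 0.01 over all measured genes (-0.07). With a pseudocount of 0.5 or 0.1 FPKM in place of 1, or after quantile normalization, Terf1 passed as lower, with 18.5%, 20.5% and 16.2% of all measured genes past the rule. Counting at 1.5-fold, Terf1 was the only member called, as lower, beside 34.3% of measured genes called in either direction and 15.2% called lower.

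The remaining comparisons gave no member past the 2-fold rule either. The share of measured genes past it was 0.518% for the KO-labelled library against WT, 6.29% for the G3 doubly deficient against the G3 Terc-deficient library, 4.85% for the G3 doubly deficient against the Gadd45a-deficient library and 6.66% for the G3 doubly deficient library against WT. The corresponding medians of the 7 genes were 0.00, -0.03, -0.18 and -0.16, beside -0.03, -0.03, -0.01 and -0.04 over all measured genes. The median for dKO against G3 turned to 0.02 with median-of-ratios size factors and to 0.11 after quantile normalization, and that for KO against WT turned to between 0.01 and 0.03 under the 3 scalings. At 1.5-fold Terf1 alone was called, as lower, for dKO against KO (15.9% of measured genes in either direction, 7.83% lower) and for dKO against WT (19.7% and 9.53%). No member was called at 1.5-fold for KO against WT (2.46%) or dKO against G3 (16.9%).

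The label Gadd45a-deficient went with little in Terc-proficient cells. All 7 differences from wild type lay between -0.19 (Terf1) and 0.13 (Terf2) in log2(FPKM + 1), and every counting interval held 0. Between the G3 libraries the differences lay between -0.36 (Pot1a) and 0.20 (Terf2ip). Here the counting intervals of Pot1a and Terf2 lay below 0 and that of Terf2ip above it. The Terf2 interval ended just below 0, at -0.007. Its difference, -0.20 as reported, became -0.13 with median-of-ratios size factors and -0.11 after quantile normalization. Intervals were not computed under other scalings or for all measured genes.

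The G3 label can be read in a pair of comparisons that have no library in common, G3 Terc-deficient against WT and G3 doubly deficient against Gadd45a-deficient. For Terf1 the differences in log2(FPKM + 1) were -0.95 and -0.64, for Tinf2 -0.41 and -0.56, and for Terf2ip 0.20 and 0.40. Terf1 was 1.5-fold lower in both, as were 6.03% of measured genes. The sign was the same in 6 of 7 members, all but Terf2 (0.15 and -0.18), and in 77.9% of measured genes. When libraries were rescaled to an equal sum, Pot1a in the first comparison and Pot1b in the second turned sign. As reported, Pot1a (-0.02 and -0.24), Pot1b (-0.13 and -0.02) and Acd (-0.08 and -0.09) lay close to 0 in at least 1 of the comparisons. For Pot1a and Pot1b this depended on scaling. After quantile normalization Pot1a was at -0.21 and -0.31, Pot1b at -0.36 and -0.09 and Acd at -0.09 and -0.05.

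Since the Gadd45a-deficient library was the male one, the G3 doubly deficient library was also set against WT, both female. Terf1 was again lower, with a difference of -0.82 in log2(FPKM + 1), Tinf2 also lower with -0.55, and Terf2ip higher with 0.40. These comparisons share libraries with those above and add no independent reading.

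**Figure D3:**
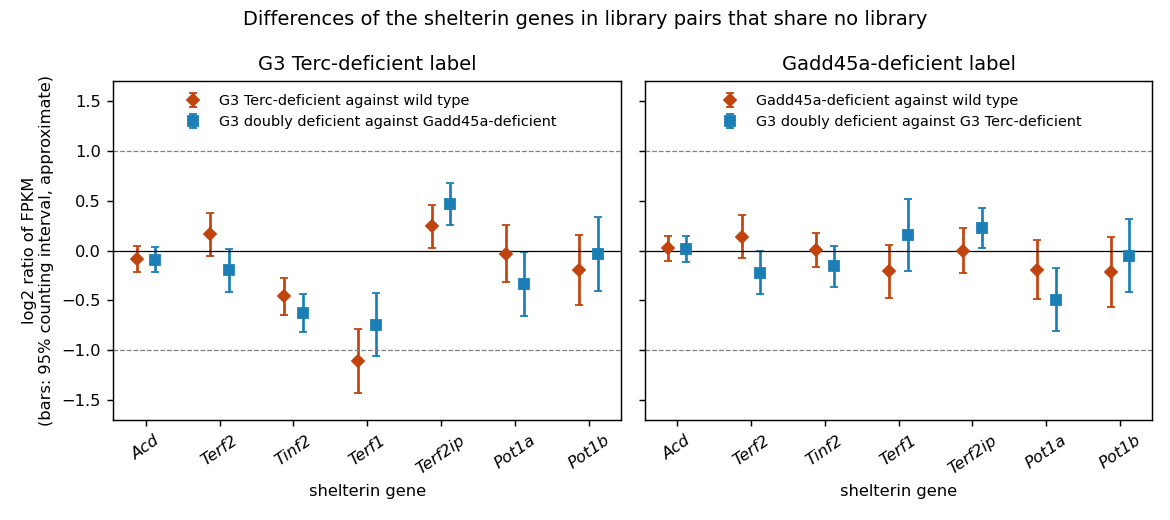
Log2 ratio of FPKM for each shelterin gene in pairs of comparisons that share no library, for the G3 Terc-deficient label (left) and the Gadd45a-deficient label (right). Bars are approximate 95% counting intervals and dashed lines mark a 2-fold ratio. On the left Terf1 and Tinf2 lie below 0 and Terf2ip above it in both comparisons.

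For the Gadd45a label the matching pair is Gadd45a-deficient against WT and G3 doubly deficient against G3 Terc-deficient. The sign was the same in 3 of 7 members (Pot1a, Pot1b and Acd) and in 50.4% of measured genes, and Pot1b turned sign between the G3 libraries with median-of-ratios size factors and quantile normalization. Terf2ip in KO against WT turned from just below to just above 0 under all 3 scalings, which gave it the same sign in both comparisons. The double difference, the second comparison minus the first, was 0.31 for Terf1, -0.33 for Terf2, 0.20 for Terf2ip, -0.14 for Tinf2, -0.22 for Pot1a, 0.11 for Pot1b and -0.01 for Acd in log2(FPKM + 1). Terf2 was the member whose counting interval for the double difference, -0.66 to -0.06 as a log2 ratio, did not hold 0. Its double difference became -0.29 with median-of-ratios size factors and -0.25 after quantile normalization. Intervals for the double difference were not computed under these scalings or for all measured genes. No member reached a double difference of 1, which 7.82% of measured genes did.

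Patterns over the 4 libraries were then compared by the distance between log2(FPKM + 1) values after each gene's mean was taken off. Nearest to Terf1 was Hspa9, the mitochondrial heat shock protein mortalin, at a distance of 0.04 with 334, 289, 165 and 186 FPKM. Next came Sms (spermine synthase), Isoc1, Lonp1 (a mitochondrial protease) and Adsl (an enzyme of purine synthesis), all within 0.07. Nearest to Tinf2 was Tgfb1, transforming growth factor beta 1, at 0.02 with 41.6, 42.2, 30.9 and 28.4 FPKM, followed by Sclt1, Tbl3, Snrpb2 and Mettl13 within 0.05. Among the other members Tinf2 was the most like Terf1, at a distance of 0.39, at rank 1126 of all measured genes.

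**Figure D4:**
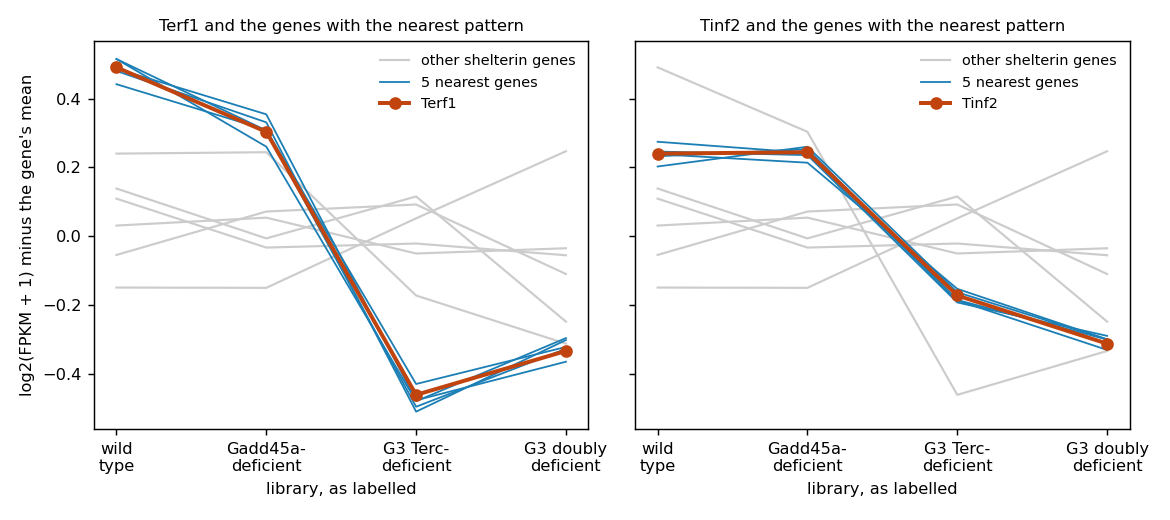
Log2(FPKM + 1) minus each gene's mean over the 4 libraries, for Terf1 (left) and Tinf2 (right) in red, their 5 nearest genes in blue and the other shelterin genes in grey. Terf1 is low in both G3 libraries, whereas Acd varies least of the grey lines.

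Other telomere genes included some that passed the rule. Of 45 such genes in 5 lists, all measured, 10 were lower in the G3-labelled library than in WT by the 2-fold rule and none higher, where 6.25% of all measured genes were lower and 9.93% higher. Their median difference was -0.29, beside 0.01 over all measured genes. By list the median was -0.48 for C-strand synthesis, -0.67 for nucleases and helicases, -0.24 for modifiers and partners, -0.29 for damage signalling and end joining and -0.21 for chromatin factors. In the dKO-labelled library 3 of 45 were lower than in WT, beside 2.86% of measured genes, and 1 was lower than in the KO-labelled library, beside 2.36%. None passed the rule between the G3 libraries or for Gadd45a-deficient against WT.

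Of the 7 genes of C-strand synthesis, 2 were lower. Pola1, the catalytic subunit of DNA polymerase alpha that fills in the strand opposite the overhang, stood at 6.32, 5.13, 1.30 and 2.23 FPKM in that order. Prim1, its primase partner, stood at 10.9, 11.2, 2.71 and 4.30 FPKM. Both were low in the G3 libraries. The 3 subunits of CST, which recruits them, did not share a pattern and are listed under older symbols in the files. Ctc1 (9.39, 8.65, 15.0 and 9.37 FPKM) and Stn1 (6.49, 5.92, 7.51 and 5.12 FPKM) were highest in the G3-labelled library, whereas Ten1 (17.1, 13.6, 11.98 and 11.2 FPKM) was highest in WT.

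Nucleases and helicases held 6 of the 10 lower genes, out of 13. They were Rtel1, a helicase that unwinds the telomere loop (7.34 FPKM in WT and 2.89 in the G3-labelled library), Blm (4.49 and 1.30), Exo1 (2.07 and 0.31), Eme1 (6.35 and 2.65), Ercc1 (50.6 and 22.5) and Nbn, a sensor of broken ends that binds TRF2 (11.7 and 4.25). Nbn had the largest difference of the 6, -1.27 in log2(FPKM + 1). Dclre1b, the nuclease Apollo that TRF2 brings to the end, stood at 2.07 and 1.98 FPKM, and Wrn at 2.86 and 2.98.

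Among partners and modifiers of shelterin proteins 1 of 10 was lower, Gnl3 (nucleostemin, a nucleolar TRF1 partner, at 54.5 and 24.9 FPKM), with Pinx1, another TRF1 partner, short of the rule at 15.0 and 7.25 FPKM. Fbxo4, which marks TRF1 for destruction, stood at 4.60 and 4.81 FPKM, and the tankyrase Tnks at 18.8 and 21.9. Among damage signalling and end joining genes 1 of 10 was lower, Parp1 (25.3 and 11.6 FPKM), while Lig3 stood at 10.5 and 6.43 FPKM. None of the 5 other telomeric chromatin factors passed, and Sirt6 stood at 11.5 and 14.5 FPKM. Daxx stood at 18.3 FPKM in the G3-labelled library and 13.6 FPKM in the dKO-labelled one.

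Proliferation genes differed in the same comparisons. All 12 mitotic genes and all 6 genes of the MCM helicase, which opens DNA for replication, were lower by the rule in the G3-labelled library than in WT, with medians of -2.41 and -2.02 in log2(FPKM + 1). Mki67 stood at 27.9 FPKM in WT and 2.97 FPKM in that library. In the dKO-labelled library 11 of 12 mitotic genes and 6 of 6 MCM genes were lower than in the KO-labelled library, with medians of -1.14 and -1.24. Between the G3 libraries 9 of 12 mitotic genes were higher by the rule in the dKO-labelled one, beside 1.51% of measured genes. Of the 6 MCM genes 0 passed there, though all 6 differences were above 0, with a median of 0.62. The part of proliferation in the Terf1, Tinf2 and telomere gene differences was not tested.

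**Figure D5:**
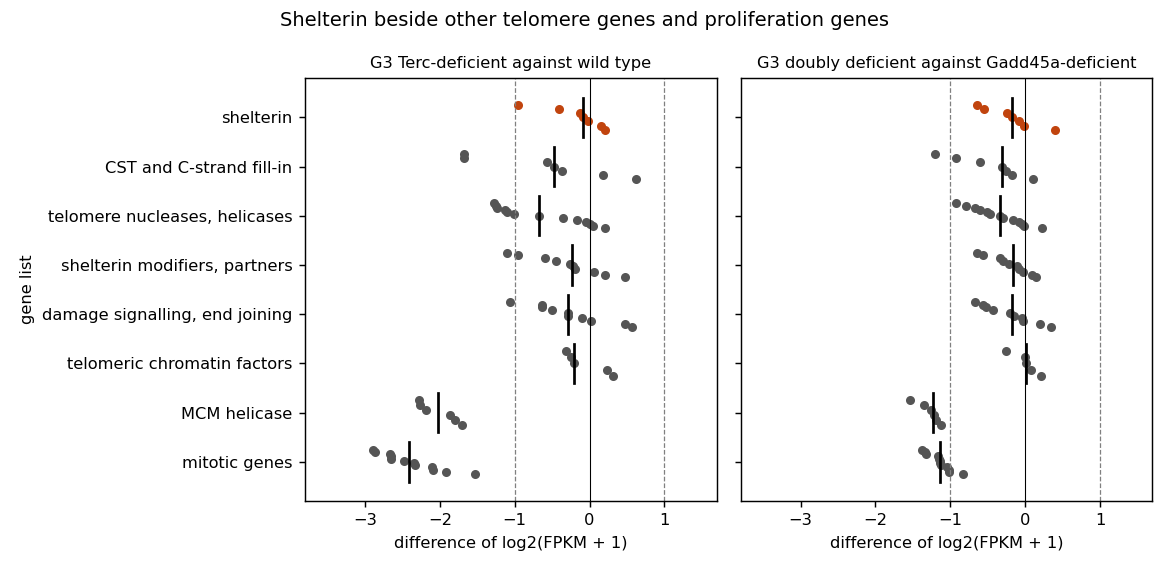
Difference of log2(FPKM + 1) for each gene (points) of shelterin (red), the 5 lists of other telomere genes and the 2 proliferation lists, with list medians as black bars and dashed lines at the 2-fold rule. Shelterin medians are -0.08 (left) and -0.18 (right), while the mitotic medians are -2.41 and -1.14.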

How the data were processed

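Poly(A)+ RNA of 4 fibroblast cultures was sequenced. The authors deposited FPKM, 1 value per gene symbol and library. TopHat2 2.1.1, Cufflinks 2.2.1 and build mm9 are named, without roles, in the submitters' processing notes. Annotation, strand setting and filters are not given in the sources used here. Each value is relative to all mapped fragments, so an abundant transcript lowers the others, and fragments of overlapping genes may be divided uncertainly.

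From 23235 symbols, 738 short non-coding RNAs were left out. Differences are of log2(FPKM + 1), counted at 2-fold, among genes averaging at least 1 FPKM. With 1 library per genotype there was no test. Depth was set at the commonest value at which low FPKM (0.05 or less) of genes with a single GENCODE M21 transcript of 1500 to 8000 nt stand for 1 fragment, with 200 nt taken off the length. Between 73.0% and 77.8% of these values then lay within 0.1 of a whole fragment. Counting intervals used the shortest transcript tied to a curated RefSeq entry, which gives the widest interval, and ignore isoform assignment. GENCODE M21 is of build GRCm38, so only lengths, overlaps and sequences were taken from it. Python 3.11.15, numpy 2.4.6, pandas 2.3.3 and matplotlib 3.10.9 were used. The 2-fold rule, the sign of differences and the depth estimate were tested on simulated data, the other steps were not. Other pseudocounts, scalings and filters were tried. The members, the gene lists and the naming rule were chosen with earlier results of these data known. The rule named all members, telomere genes past 2-fold in G3 Terc-deficient against wild type or between the G3 libraries, the 2 largest differences of each list and the 5 nearest patterns. Ctc1, Stn1, Ten1, Dclre1b, Wrn, Fbxo4, Tnks, Gmpr2, Carmil2 and Mki67 were named for their role or position after values were seen.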

Additional observations from a re-analysis of the deposited data

Results flagged for a closer look

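Some members differed in opposite directions under the same label in the Terc-proficient and the G3 libraries. With 1 library per genotype the difference was not tested, and small values of either sign meet this condition easily. Under the Gadd45a-deficient label Terf1 was lower in Terc-proficient cells and higher in G3 cells, a double difference of 0.31 in log2(FPKM + 1). For Terf2 the directions were the reverse, with -0.33, and because the same 4 values enter, the G3 label also gave opposite signs for Terf2 with the same -0.33. Terf2ip gave 0.20, resting on a difference of 0.00 in Terc-proficient cells that turned above 0, and so to the same sign, under all 3 scalings, and Tinf2 gave -0.14, also resting on a difference of 0.00 there. Only the Terf2 value had a counting interval (-0.66 to -0.06 as a log2 ratio) that did not hold 0. The Terf2 value became -0.25 after quantile normalization, for which no interval was computed.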

How the results depend on the processing

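No paired analysis was possible because each genotype had a single library. The count of shelterin genes past the 2-fold rule, 0 as reported in each of the 5 comparisons, became 1 (Terf1) for G3 Terc-deficient against wild type with a pseudocount of 0.1 or 0.5 FPKM, after quantile normalization and at a 1.5-fold rule, where Terf1 ranged from -1.09 to -0.95. At 1.5-fold it also became 1 in both other comparisons of the G3 doubly deficient library with a Terc-proficient one. Among counts, list medians and shares, 91 alternative values stayed close to the reported ones and the 18 that did not are given here. Small list medians turned sign with scaling, to 0.02 and 0.11 between the G3 libraries, and the median for G3 Terc-deficient against wild type became -0.21 after quantile normalization. Of 35 member differences, the sign turned for 2 with median-of-ratios size factors, 3 with quantile normalization and 5 when libraries were rescaled to an equal sum, in values of 0.07 or less in size as reported, and never for Terf1 or Tinf2. No scaling moved the median of all measured genes by over 0.1. Of the 45 other telomere genes, 16 passed at 1.5-fold for G3 Terc-deficient against wild type (10 as reported), beside 34.3% of measured genes. For G3 doubly deficient against wild type 11 passed at 1.5-fold (3 as reported), beside 19.7%. Between the G3 libraries 1 passed with a pseudocount of 0.1 FPKM and 3 at 1.5-fold (0 as reported), the latter beside 16.9%. For G3 doubly deficient against Gadd45a-deficient 3 passed with either smaller pseudocount or equal sums (1 as reported). At 1.5-fold 9 passed there, beside 15.9%. The share of measured genes under other pseudocounts or equal sums was not computed for these last comparisons. With Acd left out of the sum, Terf1 made up 23.1%, 20.5%, 12.6% and 15.0% in the order wild type, Gadd45a-deficient, G3 Terc-deficient and G3 doubly deficient, higher by construction. Without a filter on low values the share of all genes past the rule was lower, at 9.03% for G3 Terc-deficient against wild type, 3.64% between the G3 libraries, 2.64% and 3.58% for G3 doubly deficient against Gadd45a-deficient and wild type, and 0.316% for Gadd45a-deficient against wild type. At this depth the counting intervals of Pot1b reached 0.35 to 0.37 (log2) to either side, so smaller ratios were not detectable.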

Other observations

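Genes beside the members in the genome gave values of their own. Kars, the lysyl-tRNA synthetase gene that lies head to head with Terf2ip, stood at 86.6, 85.7, 67.5 and 64.7 FPKM in the order wild type, Gadd45a-deficient, G3 Terc-deficient and G3 doubly deficient, lower in both G3 libraries where Terf2ip was higher. Gm6793, which lies within Terf2ip on the opposite strand and is a transcribed pseudogene in RefSeq but protein-coding in GENCODE M21, was listed at 452, 429, 208 and 242 FPKM, far above Terf2ip itself. It shared no 50-base stretch with the Terf2ip transcript, and if it is a pseudogene its own value is uncertain. Pard6a, a cell polarity gene next to Acd on the opposite strand, stood at 6.13, 5.01, 4.88 and 4.51 FPKM. Tert, the reverse transcriptase of telomerase, which TPP1 brings to the telomere, stood at 1.21, 1.12, 2.23 and 2.01 FPKM, higher in both G3 libraries.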
